A study of Mus musculus with 12 samples.

Results

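The 7 genes described here encode peptidases and peptidase inhibitors of the brain. They are the carboxypeptidases Cpm and Cpe, the endopeptidases Klk6, Adamts4 and Htra1, and the inhibitors Serpinb1a and Timp4. They were taken as a named list, and each was measured by the only probe set that the annotation pairs with it and with no other gene, which gave 7 probe sets of 35556 and 7 of the 17656 genes that passed the filter on low values. All 7 passed that filter, and none of their values lay at system noise, the level below which a signal was not counted as measured (5.75 on the log2 scale used here). The list was drawn up with the differences between the groups in these arrays already known, so those differences are given below as a description, with no test.

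The arrays came from the medial prefrontal cortex (mPFC) of 6 male mice exposed to chronic social defeat (CSD) and of 6 male homecage (HC) mice kept in groups, with 1 array per mouse and no pooling. All were adult mice of the C57BL/6 strain, labelled wild type. Each CSD mouse lived for 14 days beside a dominant CD-1 male behind a perforated partition and was exposed to it for 5 min per day. Both groups went through behavioral tests, which served as inclusion criteria for the CSD mice. Brains were collected 24 h after the final session from animals rinsed with saline. The dissected cortex was bounded by a white matter tract, the forceps minor. The values are log2 expression values made with RMA, a method that removes background, brings arrays to a common scale and merges the probes of a probe set. They compare a gene between mice, not one gene with another. HC replicates 2 and 6 stood apart, with the lowest median correlations with the other arrays of their group (0.992 for replicate 2 and 0.991 for replicate 6, against 0.994 to 0.996 on the other 10 arrays) and the lowest array weights in limma (0.259 for replicate 2 and 0.398 for replicate 6, against 0.898 to 1.88), so values without both are also given.

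Extracellular proteolysis reshapes the matrix around neurons and glia, trims signaling peptides and activates receptors, and it is held in check by inhibitors that bind the enzymes directly. Metallocarboxypeptidases such as CPM, which is anchored on the cell surface, and CPE, which works in secretory granules, remove basic residues from the end of peptides. KLK6 is a secreted trypsin-like protease made by oligodendrocytes, the myelin-forming cells. ADAMTS4 is a secreted metalloprotease that cuts proteoglycans such as brevican, and HTRA1 is a secreted serine protease of the matrix. TIMP4 inhibits matrix metalloproteinases. SERPINB1A, the mouse counterpart of human SERPINB1, inhibits the serine proteases of neutrophil granules and, like other serpins of its clade, is mainly found inside cells.

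Promoter sequence of RefSeq (build GRCm38.p6) was matched by symbol for 4 of the 7 genes, Cpm, Klk6, Htra1 and Timp4. The 250 bases before the start are shown for Cpm, which had the largest difference between the groups, and for Timp4, which had a small one. Capitals mark, on either strand, a GC box, whose letters are GGGCGG, and an E-box, spelled CAGCTG. They would also mark a TATA box, searched for as TATAAA, and the SOX motif ACAAAG or its variant form ACAATG, of which neither stretch holds any, and matches that overlap are joined.
Cpm (chr10:117629250-117629499, plus strand): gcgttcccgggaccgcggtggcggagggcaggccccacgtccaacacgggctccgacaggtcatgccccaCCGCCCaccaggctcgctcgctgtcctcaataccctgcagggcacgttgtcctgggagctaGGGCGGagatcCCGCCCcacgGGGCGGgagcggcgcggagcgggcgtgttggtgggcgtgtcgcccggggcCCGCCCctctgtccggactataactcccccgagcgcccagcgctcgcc
Timp4 (chr6:115252206-115252455, minus strand): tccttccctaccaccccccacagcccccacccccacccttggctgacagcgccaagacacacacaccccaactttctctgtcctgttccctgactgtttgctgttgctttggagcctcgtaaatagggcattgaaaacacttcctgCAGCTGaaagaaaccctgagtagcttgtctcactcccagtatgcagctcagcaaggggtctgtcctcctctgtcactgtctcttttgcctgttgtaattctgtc
The Cpm stretch was rich in CpG, with 30 CpG dinucleotides, 74.4% G and C and 5 GC boxes, whereas the Timp4 stretch had 2 CpG dinucleotides, 53.6% G and C, no GC box and 1 E-box. Of 32851 RefSeq promoters of the same length, 32.7% held a GC box and 13% an E-box, 12.4% held a TATA box, and 5.94% had at least as many CpG dinucleotides as Cpm. The Htra1 stretch had 22 CpG dinucleotides and 1 GC box. Klk6 has 2 listed starts, of which the one at the lower coordinate had 2 GC boxes and 1 match to each SOX motif, found in 16.5% of promoters for ACAAAG and in 10.7% for its variant. These matches are descriptions of the letters and were not tied to the expression values.

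Cpm showed the largest difference of the set. Its log2 values were 6.65, 6.76, 6.90, 6.65, 6.69 and 6.59 in CSD mice (replicates 2, 6, 7, 8, 9 and 10), against 7.11, 7.36, 7.16, 7.66, 7.29 and 7.67 in HC mice (replicates 1 to 6). Every CSD mouse lay below every HC mouse, with a gap of 0.21 between the groups, and HC replicates 4 and 6 were the highest. The means were 6.71 ± 0.11 in CSD and 7.38 ± 0.24 in HC mice (SD, n = 6 each), a difference of −0.67 (standard error 0.10, CSD minus HC), which corresponds to a CSD level of 0.629 times that of HC. Cpm was the only one of the 7 genes without overlap on all 12 arrays (3 genes without CSD replicate 6, 2 without HC replicate 5), and among all 17656 genes 0.935% showed such a separation in this direction, from which nothing is read about the set, since it was chosen on this contrast.

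Cpe, the other carboxypeptidase, hardly varied between mice. Its values were 12.87, 12.84, 12.84, 12.82, 12.90 and 12.87 in CSD mice, against 12.87, 12.79, 12.88, 12.85, 12.87 and 12.88 in HC mice. The groups overlapped almost fully, and only HC replicate 2 lay below all CSD mice. The means were 12.86 ± 0.03 in CSD and 12.86 ± 0.04 in HC mice (SD, n = 6 each), a difference of −0.0013 (standard error 0.03). The 2 carboxypeptidases of the set therefore gave differences of −0.67 and −0.0013 on the same arrays.

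Among the endopeptidases, Adamts4 had the largest difference. Its values were 7.88, 7.97, 7.85, 7.56, 7.82 and 7.82 in CSD mice, against 7.90, 8.11, 7.94, 8.23, 8.23 and 8.12 in HC mice. CSD replicate 6 alone reached into the HC range, the other 5 lay below all HC mice, and CSD replicate 8 stood apart at the low end. The means were 7.82 ± 0.14 in CSD and 8.09 ± 0.14 in HC mice (SD, n = 6 each), a difference of −0.27 (standard error 0.08), or a CSD level of 0.829 times that of HC.

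Klk6 differed less, and the difference rested largely on 1 HC mouse. Its values were 7.39, 7.41, 7.43, 7.24, 7.51 and 7.42 in CSD mice, against 7.47, 8.12, 7.57, 7.63, 7.30 and 7.37 in HC mice. HC replicate 2 was far above the rest, while HC replicates 1, 5 and 6 lay within the range of the CSD mice. The means were 7.40 ± 0.09 in CSD and 7.58 ± 0.29 in HC mice (SD, n = 6 each), a difference of −0.18 (standard error 0.11) that was smaller than the SD of the HC mice. Without HC replicate 2 the difference was −0.07, and without HC replicates 2 and 6 together it was −0.09. HC replicate 2 also had the highest median of all values on an array, 7.69, against 7.50 to 7.63 on the other 11 arrays, and its part in the Klk6 value was not tested beyond leaving it out.

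Htra1 was the only endopeptidase with a higher mean in CSD mice. Its values were 10.62, 10.57, 10.81, 10.91, 10.82 and 10.79 in CSD mice, against 10.68, 10.70, 10.65, 10.44, 10.51 and 10.79 in HC mice. In CSD, replicates 7, 8, 9 and 10 lay above all HC mice, replicate 10 by a narrow margin, and replicates 2 and 6 lay inside the HC range. The means were 10.75 ± 0.13 in CSD and 10.63 ± 0.13 in HC mice (SD, n = 6 each), a difference of 0.12 (standard error 0.07) that was close to the spread within either group.

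The 2 inhibitors also differed from each other. Serpinb1a had values of 6.66, 6.82, 6.60, 6.31, 6.38 and 6.22 in CSD mice, against 6.93, 7.04, 6.82, 6.95, 6.80 and 7.0003 in HC mice. The CSD mice were spread widely, with replicates 8, 9 and 10 lowest, and only CSD replicate 6 reached the lowest HC mouse. The means were 6.50 ± 0.23 in CSD and 6.93 ± 0.09 in HC mice (SD, n = 6 each), a difference of −0.43 (standard error 0.09), or a CSD level of 0.744 times that of HC. The lowest Serpinb1a value lay 0.477 above system noise, so the size of this difference depends on where that level is set, and it was −0.17 with system noise 1 log2 unit higher.

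Timp4 gave values of 10.03, 9.78, 10.02, 9.87, 9.96 and 9.88 in CSD mice, against 9.996, 9.99, 9.95, 9.78, 9.75 and 9.90 in HC mice. The groups overlapped throughout. The means were 9.92 ± 0.10 in CSD and 9.90 ± 0.10 in HC mice (SD, n = 6 each), a difference of 0.03 (standard error 0.06), smaller than the SD between mice.

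**Figure D1:**
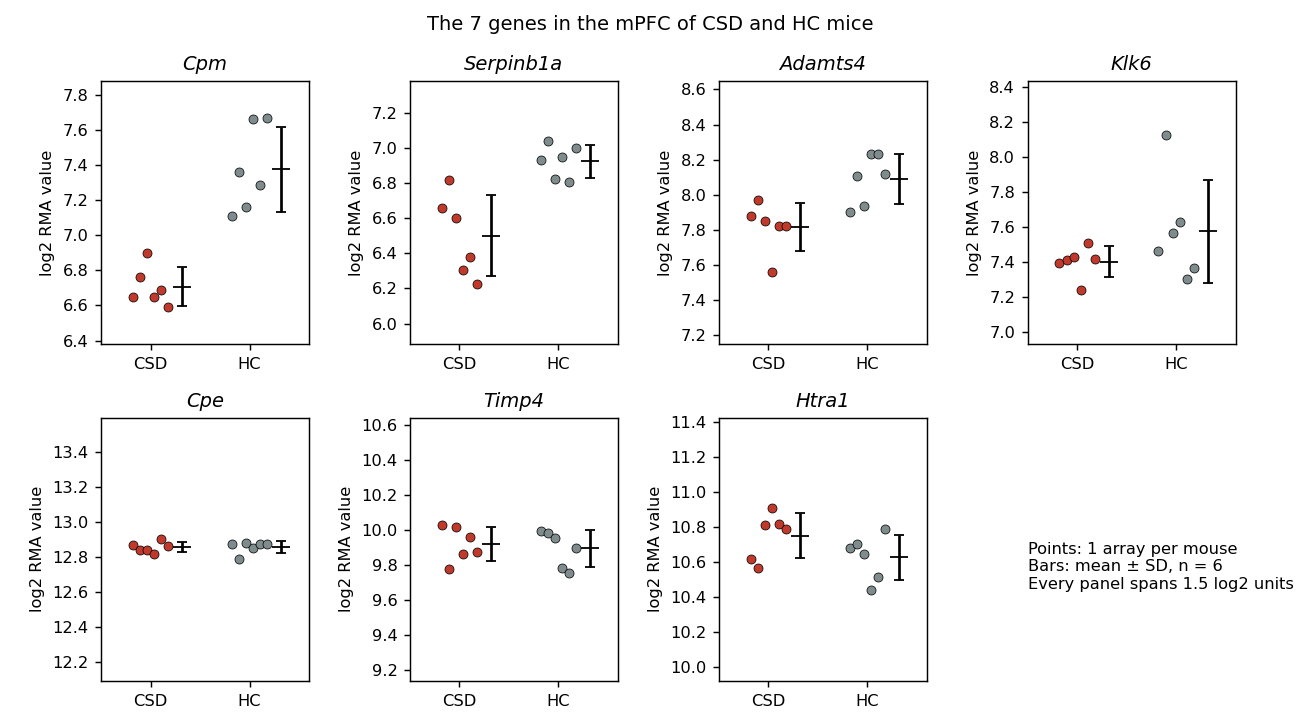
Log2 RMA values (vertical axis, each panel 1.5 log2 units high) of the 7 genes, 1 point per array, with CSD mice in red and HC mice in grey; bars are the mean ± SD over 6 mice. Cpm shows no overlap of the groups, Serpinb1a and Adamts4 overlap by 1 CSD mouse, and HC replicate 2 stands apart for Klk6. Cpe and Timp4 overlap widely, while 4 CSD mice lie above all HC mice for Htra1.

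Ordered by their differences, the genes ran from Cpm at −0.67 through Serpinb1a, Adamts4, Klk6, Cpe and Timp4 to Htra1 at 0.12. The median over the 7 was −0.18, against −0.01 over all 17656 genes. Without HC replicates 2 and 6 the differences were −0.60 for Cpm, −0.38 for Serpinb1a, −0.26 for Adamts4, −0.09 for Klk6, −0.01 for Cpe, 0.05 for Timp4 and 0.18 for Htra1. HC replicate 6 was the highest of all arrays for Cpm and the second highest in the oligodendrocyte marker level used below. Cpm, Serpinb1a and Adamts4, 3 of the 7, were lower in CSD by a fold of at least 1.2, which 0.685% of all genes were, and this share is a description because the list was chosen on the same contrast.

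**Figure D2:**
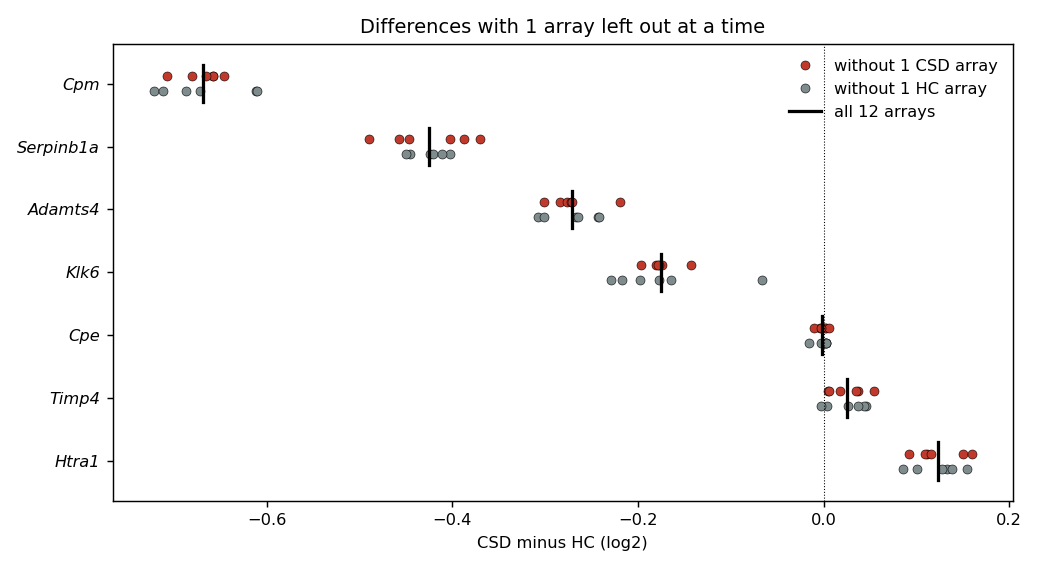
Difference between CSD and HC mice (horizontal axis, log2) for each of the 7 genes with all 12 arrays (black line) and with 1 array left out at a time (red points without 1 CSD array, grey points without 1 HC array). Cpm stays between −0.72 and −0.61, Klk6 moves to −0.07 without HC replicate 2, and Cpe and Timp4 stay close to 0.

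The families of these enzymes and inhibitors were set beside them as lists that leave out the 7 genes. In limma, which fits a linear model to each probe set and steadies its variance with that of the others, p-values were adjusted by Benjamini-Hochberg over 29838 probe sets, and none of the relatives reached an adjusted p under 0.05 with a fold of at least 1.2. The same test called 0% of all probe sets. At an unadjusted p under 0.05 with that fold it gave 406 probe sets, or 1.36%, and of the named genes 0.6% were lower and 0.0793% higher in CSD. The methods' t-test gave 0 probe sets after adjustment and 0.623% of the named genes without it.

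None of the 6 families passed that unadjusted limit in either direction. Of 10 other metallocarboxypeptidases tested 5 had a lower and 5 a higher mean in CSD, with a median difference of −0.0018. Cpa5 was among them, at system noise on 8 arrays. The one with the smallest p was Cpn1, the catalytic subunit of the plasma carboxypeptidase N, which removes basic residues as CPM does. It averaged 6.20 ± 0.10 in CSD and 6.34 ± 0.11 in HC mice (SD, n = 6 each), a difference of −0.14 (adjusted p = 0.544 from limma). The next was Cpa1, a pancreatic enzyme, with a difference of 0.09 (adjusted p = 0.849 from limma). The other metallocarboxypeptidases ran from −0.14 to 0.09, against −0.67 for Cpm, which was chosen with its difference known.

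Of 11 other kallikreins, the tissue serine proteases related to KLK6, 8 were higher on average in CSD and 3 lower, with a median of 0.04. Klk14 averaged 7.12 ± 0.07 in CSD and 6.94 ± 0.17 in HC mice (SD, n = 6 each), a difference of 0.18 (adjusted p = 0.480 from limma), and Klk9 differed by 0.10 (adjusted p = 0.734 from limma). Of 17 other ADAMTS proteases 13 had a higher and 4 a lower mean, with a median of 0.05, against −0.27 for Adamts4. Adamts17 differed by 0.13 (adjusted p = 0.576 from limma) and Adamts7 by 0.10 (adjusted p = 0.703 from limma). Adamts4 and Klk6 had lower means in CSD beside families whose medians were slightly above 0, but both were chosen with this contrast known. The Klk6 difference also rested largely on HC replicate 2 and was −0.07 without it. The other kallikreins reached down to −0.07 with all 12 arrays.

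Of 15 listed clade B serpins besides Serpinb1a 7 were tested, of which Serpinb1b lay at system noise on 11 arrays and Serpinb2 on 4. Of those tested, 4 had a lower and 3 a higher mean. They ran from −0.09 for Serpinb9, an inhibitor of granzyme B, to 0.12 for Serpinb8 (adjusted p = 0.864 and 0.826 from limma). The other 3 HtrA proteases lay between −0.08 and 0.0024. Htra2, a mitochondrial protease, differed by −0.08 (adjusted p = 0.741 from limma) and Htra4 by 0.0024 (adjusted p = 0.996 from limma). The other 3 TIMPs lay between −0.09 for Timp3 and 0.04 for Timp1, with Timp2 at −0.04 (adjusted p = 0.887 for Timp3 and 0.843 for Timp2 from limma).

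**Figure D3:**
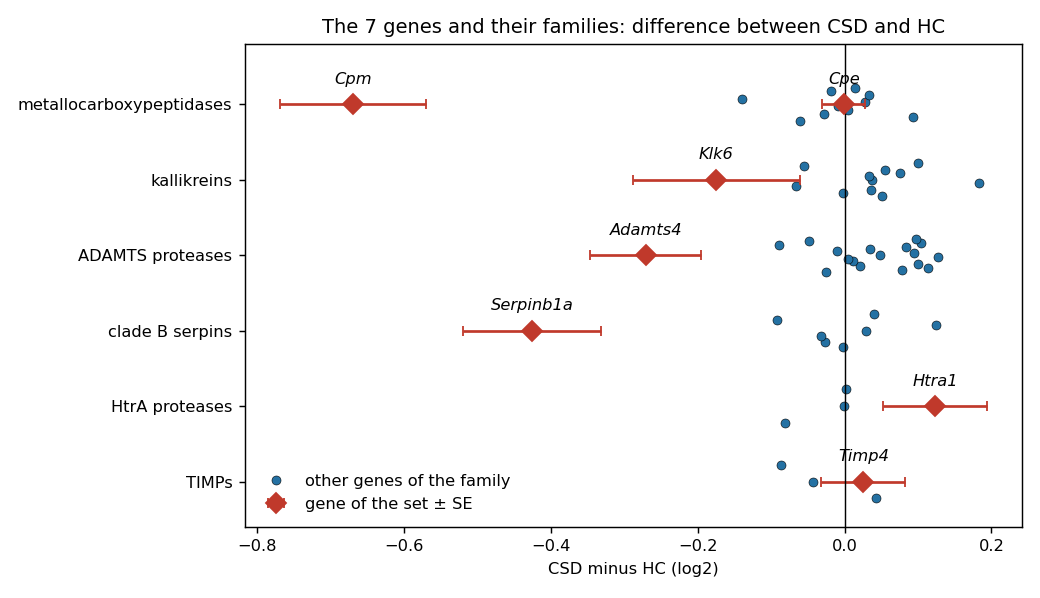
Difference between CSD and HC mice (horizontal axis, log2) of the 7 genes (red diamonds, ± standard error) and of the other measured genes of their families (blue points), 1 family per row. Cpm, Serpinb1a and Adamts4 lie left of every relative, at −0.67, −0.43 and −0.27, while the relatives lie between −0.14 and 0.18. The 7 genes were chosen with this contrast known, so nothing is read from their place beside the relatives.

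Beyond the families, the genes that act with or on these enzymes were examined in further lists. Together with the families, 152 of 176 listed genes were tested, 80 with a lower and 72 with a higher mean in CSD, and 0 passed the adjustment in limma or in the methods' t-test. Without adjustment and at any fold, 12 of them, or 7.89%, had p under 0.05 in limma, against 8.41% of all named genes, so the related genes as a whole were at the background. With the fold limit of 1.2 only 1 passed in either test, the myelin gene Mbp, which is also one of the oligodendrocyte markers used below, and with 1 array left out the count was 1 to 3, with Bmp4 or Hapln2 added.

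Mbp, whose protein is a known substrate of KLK6, averaged 11.41 ± 0.13 in CSD and 11.73 ± 0.14 in HC mice (SD, n = 6 each), a difference of −0.32 (standard error 0.07, adjusted p = 0.199 from limma). Of the 5 tested genes among KLK6 substrates and proteinase-activated receptors 4 had a lower mean, with a median of −0.11. The 3 proteinase-activated receptors tested did not share a direction, with F2r at −0.12, F2rl2 at −0.11 and F2rl3 at 0.14 (adjusted p = 0.577 for F2r, 0.555 for F2rl2 and 0.793 for F2rl3 from limma), and App, the amyloid precursor, differed by −0.01.

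For Adamts4, the lecticans and their partners gave small values. Bcan, the brevican gene, differed by −0.05, Ncan by −0.06, Vcan by −0.07 and Acan by 0.05. The only gene of these 9 at an unadjusted p under 0.05 was Hapln2, a link protein of the node of Ranvier made by oligodendrocytes. It averaged 7.35 ± 0.11 in CSD and 7.59 ± 0.15 in HC mice (SD, n = 6 each), a difference of −0.24 (adjusted p = 0.344 from limma). Hapln4 followed at −0.14 (adjusted p = 0.731 from limma).

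For Cpe, 11 genes of prohormone processing and granules had a median of −0.02. Pcsk6, a proprotein convertase, averaged 8.49 ± 0.06 in CSD and 8.63 ± 0.04 in HC mice (SD, n = 6 each), a difference of −0.14 (adjusted p = 0.255 from limma). Its groups nearly touched, with the highest CSD value at 8.5641 and the lowest HC value at 8.5644. Pcsk1n, the inhibitor of the convertase PCSK1, differed by −0.15 (adjusted p = 0.313 from limma), while Pcsk1 and Pam, the amidating enzyme, differed by 0.04 and 0.03. Of 12 precursors of neuropeptides and neurotrophins 9 had a lower mean, and the smallest p were those of Tac2 at −0.13 and Pdyn at −0.11 (adjusted p = 0.561 and 0.643 from limma).

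Around Htra1, 7 of 11 TGF-beta family ligands and matrix genes had a lower mean, with a median of −0.01. Bmp4, a bone morphogenetic protein, averaged 7.98 ± 0.20 in CSD and 8.24 ± 0.12 in HC mice (SD, n = 6 each), a difference of −0.25 (adjusted p = 0.448 from limma), and Tgfb2 differed by −0.08 (adjusted p = 0.797 from limma). The neutrophil proteases that SERPINB1A inhibits and that could be tested, Elane, Ctsg and Prtn3, lay between −0.02 and 0.07, with adjusted p = 0.945 for Ctsg and 0.869 for Prtn3 from limma. CPM trims kinins, and the kinin receptor genes Bdkrb1 and Bdkrb2 differed by 0.06 and 0.02 (adjusted p = 0.899 and 0.978 from limma).

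In the remaining lists no gene passed the unadjusted limit. Among 18 other protease inhibitors 9 had a lower and 9 a higher mean, with Spock1 at −0.07 and Spint2 at −0.10 (adjusted p = 0.725 and 0.814 from limma). Among 30 other extracellular and membrane proteases 18 had a lower mean, with Dpp4 at −0.12 and Prss12, neurotrypsin, at −0.09 (adjusted p = 0.633 and 0.656 from limma). Of the 152 related genes tested, 2 showed no overlap of the groups, Mbp and Pcsk6, against 0.935% of all genes in that direction. Both did so by a narrow margin, with the highest CSD value of Mbp at 11.559 and its lowest HC value at 11.566.

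The markers of the cells in the tissue moved with part of the set. All 9 tested oligodendrocyte markers, with Mog, Mbp, Cnp and Mag among them, had lower means in CSD, and the mean of their log2 values ranged from 9.30 to 9.85 in CSD and from 9.88 to 10.47 in HC mice. The mean of 10 astrocyte markers ranged from 10.84 to 10.93 in CSD and from 10.84 to 11.02 in HC mice, 8 of them with a lower mean in CSD. The microglial markers, of which 7 of 7 had a lower mean in CSD, ranged from 9.19 to 9.33 in CSD and from 9.28 to 9.47 in HC mice. The 4 neutrophil markers kept, cells in which SERPINB1A also acts, ranged from 6.75 to 6.90 in CSD and from 6.50 to 6.98 in HC mice, and 3 of the 4 had a higher mean in CSD, while the defining markers S100a8, Ly6g and Ngp were not among the genes kept. The other 7 lists, of precursors, neurons, vessel, blood and choroid plexus cells and of the striatum, differed by −0.10 to 0.10 on average. In bulk tissue, fewer oligodendrocytes and less RNA per oligodendrocyte cannot be told apart, and the part of either in the Cpm, Serpinb1a and Adamts4 values was not tested.

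Variation between mice of the same group does not involve the difference by which the genes were chosen, so it was used to compare each gene with the markers. Each of the 7 genes was correlated with the mean of the oligodendrocyte markers and with that of the astrocyte markers, within 6 CSD and within 6 HC mice, with exact permutation tests over the 720 pairings (two-sided), in which the smallest p that r can reach is 0.00139. Of the 28 relations 3 had an exact p under 0.05 for Pearson's r and 0 passed the Benjamini-Hochberg adjustment, with a smallest adjusted p of 0.117 for r and 0.233 for Spearman's rho. The values below are therefore given as a description of these mice.

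Cpm ran with the oligodendrocyte markers in both groups. Pearson's r was 0.79 in CSD (rho = 0.77, exact p = 0.0528 and 0.103, adjusted p = 0.369 and 0.544) and 0.77 in HC mice (rho = 0.60, exact p = 0.0944 and 0.242, adjusted p = 0.460 and 0.677). Without the 2 arrays farthest from the median of the marker level, r was 0.80 in CSD and 0.98 in HC mice. Its r with the astrocyte markers was 0.31 in CSD and −0.21 in HC mice (exact p = 0.567 and 0.676 for r), and neither kept its sign. Without the 2 farthest arrays these were −0.80 in CSD and 0.55 in HC mice, in CSD r was −0.92 without replicate 7, and in HC it was −0.89 without replicates 2 and 6.

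Adamts4 had an r of 0.58 in CSD (rho = 0.89, exact p = 0.201 and 0.0333, adjusted p = 0.574 and 0.311) and of 0.61 in HC mice (rho = 0.66, exact p = 0.226 and 0.175, adjusted p = 0.574 and 0.544) with the oligodendrocyte markers. Without the 2 farthest arrays these were 0.65 in CSD and 0.68 in HC mice. The low CSD replicate 8 of Adamts4 also had one of the lower marker levels, 9.45.

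Serpinb1a followed the oligodendrocyte markers closely in CSD mice, with r = 0.95 (rho = 0.94, exact p = 0.00972 and 0.0167, adjusted p = 0.136 and 0.233), and r was 0.86 without the 2 farthest arrays. In HC mice its r was −0.13 (rho = −0.14, exact p = 0.781 and 0.803), and this value was not stable. It was 0.86 without the 2 farthest arrays, 0.05 without HC replicates 2 and 6 and 0.36 without HC replicate 2 alone, and over 13 alternatives, in 3 of which the sign changed, it ranged from −0.42 to 0.36. The difference between the groups in this relation was not tested. In CSD the 3 mice lowest in Serpinb1a, replicates 8, 9 and 10, were also the 3 lowest in the marker level.

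Klk6, although known from oligodendrocytes, did not run with their markers, with r = 0.14 in CSD (rho = 0.09, exact p = 0.822 and 0.919) and r = −0.55 in HC mice (rho = −0.31, exact p = 0.243 and 0.564). Without the 2 farthest arrays r was 0.28 in CSD and −0.03 in HC mice, and without HC replicates 2 and 6 it was 0.24 in HC mice. Cpe had r = −0.31 in CSD (rho = −0.14, exact p = 0.551 and 0.803) and 0.48 in HC mice (rho = 0.26, exact p = 0.371 and 0.658) with the oligodendrocyte markers, and the HC value turned to −0.56 without the 2 farthest arrays and to −0.43 without HC replicate 2, while centring each array on its median gave 0.72 and quantile normalization 0.62.

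Htra1 and Timp4 had their highest r in HC mice, with the astrocyte markers. There Htra1 had r = 0.96 (rho = 0.94, exact p = 0.00417 and 0.0167, adjusted p = 0.117 and 0.233) and 0.68 without the 2 farthest arrays. In CSD mice r was 0.41 (rho = 0.09, exact p = 0.421 and 0.919), and it turned to −0.29 without the 2 farthest arrays. Timp4 had r = 0.64 in CSD (rho = 0.71, exact p = 0.172 and 0.136) and 0.84 in HC mice (rho = 0.66, exact p = 0.0417 and 0.175, adjusted p = 0.369 and 0.544), but without the 2 farthest arrays r was −0.16 in CSD and 0.01 in HC mice. In HC mice the Timp4 value was 0.91 without replicates 2 and 6 and 0.78 to 0.91 with 1 array left out at a time. With Aqp4 alone in place of the 10 markers, Timp4 had r = −0.85 in CSD and 0.99 in HC mice, so the sign in CSD depended on the marker. With the oligodendrocyte markers Htra1 had r = −0.61 in CSD (rho = −0.54, exact p = 0.211 and 0.297) and −0.35 in HC mice (rho = −0.43, exact p = 0.467 and 0.419), and Timp4 0.01 in CSD and −0.76 in HC mice (exact p = 0.981 and 0.0986 for r). The CSD value of Timp4 was 0.80 without the 2 farthest arrays and 0.86 without CSD replicate 6. All 7 are grouped as oligodendrocyte genes, but their r with the oligodendrocyte markers did not bear this name out for Cpe, Klk6, Htra1 and Timp4. With the oligodendrocyte markers, Cpm and Adamts4 had a positive r in both groups under each of 13 alternatives, and Serpinb1a in CSD mice. Some of these alternatives, among them no floor and Aqp4 alone as the astrocyte marker, returned the same r as the main setting. None of these relations passed the adjustment.

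**Figure D4:**
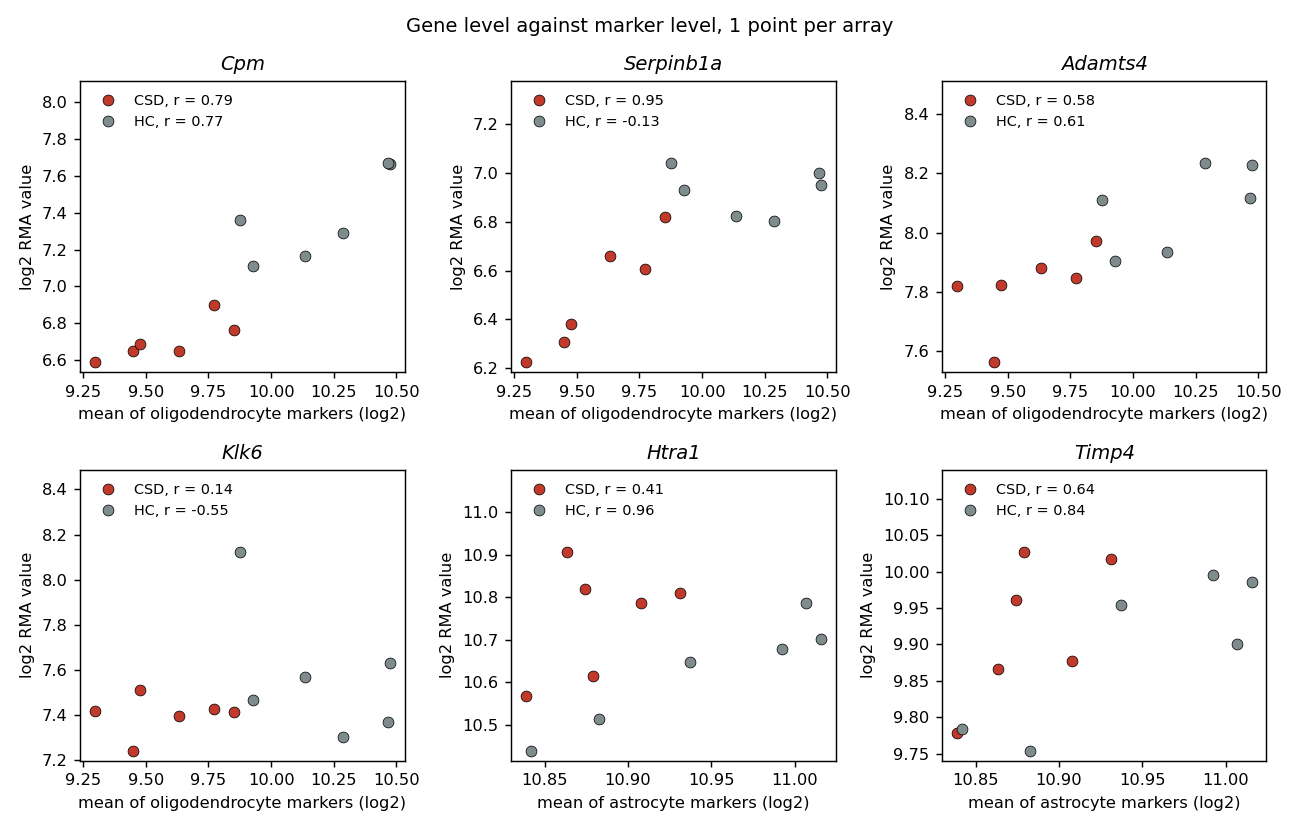
Log2 RMA value of 6 of the genes (vertical axes) against the mean log2 value of oligodendrocyte or astrocyte markers (horizontal axes), 1 point per array, CSD mice in red and HC mice in grey, with Pearson's r within each group. Cpm rises with the oligodendrocyte markers in both groups (0.79 in CSD and 0.77 in HC mice), and Htra1 rises with the astrocyte markers in HC mice (0.96).

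Over all 12 arrays with the mean of each group removed, each gene was also set against the markers one by one, as a description, since the arrays share 1 normalization. The median r with the 9 oligodendrocyte markers was 0.71 for Cpm, 0.56 for Adamts4 and 0.52 for Serpinb1a, positive for all 9 markers in each case. It was 0.17 for Cpe, −0.36 for Klk6, −0.37 for Timp4 and −0.45 for Htra1. Without HC replicates 2 and 6 it was 0.18 for Klk6 and −0.36 for Cpe, while it was 0.79 for Cpm, 0.68 for Adamts4, 0.67 for Serpinb1a, −0.32 for Timp4 and −0.69 for Htra1. Htra1 had a positive r with all 10 astrocyte markers, with a median of 0.42. Timp4 and Klk6 had a positive r with 9 of the 10, with medians of 0.42 and 0.15. Without HC replicates 2 and 6 the medians were 0.26 for Htra1, 0.36 for Timp4 and −0.16 for Klk6.

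Among themselves the 7 genes did not vary as 1 block. Of 42 relations between pairs within a group 2 had an exact p under 0.05 for r and 0 passed the adjustment, with r between −0.83 and 0.80 in CSD and between −0.95 and 0.76 in HC mice. Of the 21 pairs, 12 had the same sign of r in both groups. Adamts4 and Htra1 ran against each other, with r = −0.83 in CSD (rho = −0.83, exact p = 0.0208 and 0.0583, adjusted p = 0.525 and 0.817) and −0.55 in HC mice (rho = −0.43, exact p = 0.264 and 0.419), and without the 2 farthest arrays these were −0.87 in CSD and −0.94 in HC mice. The other pair, Cpe and Klk6, had r = −0.95 in HC mice (rho = −0.60, exact p = 0.025 and 0.242, adjusted p = 0.525 and 0.892), which became 0.33 without the 2 farthest arrays, one of which was HC replicate 2.

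The genes most like each of the 7 were sought by Pearson's r over the 12 arrays with group means removed, ranked over all 17656 genes and given with no test. Cpm was most like Efcab14 (0.94), Npc1 (0.94), a cholesterol transporter of lysosomes, and Cdk19 (0.93), a kinase of the Mediator complex. Adamts4 was most like Ttll7 (0.90), Slc25a12 (0.90), the mitochondrial aspartate and glutamate carrier, and Apc (0.89), a regulator of Wnt signaling. Serpinb1a was most like Rab4a (0.92), a small GTPase of endosomes, Cdkl1 (0.91) and Sgpp1 (0.91), a phosphatase of sphingosine phosphate. Without HC replicates 2 and 6 these 9 values lay between 0.91 and 0.95.

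Htra1 was most like Tmem255b (0.92), Mrtfa (0.91), a coactivator of serum response factor, and Fgfr3 (0.91), a fibroblast growth factor receptor that is also one of the astrocyte markers. Timp4 was most like Il13ra1 (0.91), a receptor chain for interleukin 13, Nrip2 (0.90) and Mirlet7f-1 (0.90), a microRNA gene at system noise on 3 arrays. Cpe was most like Eef1akmt2 (0.91), Dzip3 (0.89) and Rbbp6 (0.87). Klk6 was most like Slc15a5 (0.95), Il1rn (0.95), the interleukin 1 receptor antagonist, and Ctla4 (0.95), an inhibitory receptor of T cells. Without HC replicates 2 and 6 the values were 0.77, 0.75 and 0.75 for Klk6 and 0.79, 0.78 and 0.72 for Cpe. Those of Htra1 and Timp4 lay between 0.89 and 0.93. Quantile normalization gave 0.74 for Cpe with Eef1akmt2 and 0.62 for Timp4 with Mirlet7f-1, and 0.81 to 0.94 for all other genes named here.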

How the data were processed

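Expression was measured in the mPFC of 6 CSD and 6 HC mice with Affymetrix Mouse Gene 1.0 ST arrays, from 200 ng of total RNA per mouse. The deposited values are log2 signals that the authors obtained by RMA with Affymetrix Expression Console, as the methods and the submitters' processing notes state, and versions were not given in the sources used here. An array has no read depth, and the number of arrays limits the precision. The groups and replicate numbers came from the sample titles. The methods floor values at system noise without stating its level, which was set here to 5.75, the 20th percentile over the whole table. Of 35556 probe sets, 29838 rose above this floor on some array and entered the fit, with 4.67% of values replaced by the floor. By the 2016 annotation 21789 probe sets belong to 1 gene, and the brightest stood for each of the 17656 genes kept.

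Differences (CSD minus HC) were fitted in R 4.3.3 by limma 3.58.1 (functions lmFit and eBayes, two-sided p, Benjamini-Hochberg). A call needed a fold of at least 1.2 besides an adjusted p under 0.05. Standard errors are those of this fit. Correlations used exact permutation tests. The fit was tested on simulated data with known fold changes. The alternatives were other floors, filters, fold limits and normalizations, the methods' t-test, array weights, a trend, a replicate block and leaving out arrays. The genes and lists were chosen with earlier results of these data known. The rule for named genes took the 7 genes, the 2 genes of smallest p in each list or all that passed without adjustment, and the 3 genes most like each of the 7. Genes named beyond it (Cpa5, Serpinb1b, Serpinb2, Timp1, F2r, F2rl2, F2rl3, App, Bcan, Ncan, Vcan, Acan, Pcsk1, Pam, Elane and the markers) were chosen after their values were seen. Figures were drawn with matplotlib 3.10.9.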

Additional observations from a re-analysis of the deposited data

Results flagged for a closer look

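In groups of 6 arrays, a highest or lowest value was singled out where its gap to the nearest array exceeded 0.625 of the range of the group, the limit of Dixon's test. Of 20 groups of values examined 3 were singled out, where chance gives about 1 in 20. Cpe on HC replicate 2 was at 12.79, and 0.710 of the HC range lay between it and the nearest value, 12.85. The median of all values on the array of HC replicate 2 was 7.69, with a gap of 0.667 of the range. Adamts4 on CSD replicate 8 was at 7.56, with a gap of 0.630 of the range, and without this array the Adamts4 difference was −0.22.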

How the results depend on the processing

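The Cpm, Serpinb1a, Adamts4, Klk6 and Htra1 differences kept their sign in all 20 alternatives each. That of Cpe, near 0, changed sign in 7 and that of Timp4 in 1, without HC replicate 5. Not every alternative could change a value, since no value lay at system noise and each gene had 1 probe set. System noise 1 log2 unit higher changed only Cpm and Serpinb1a. Leaving out 1 array at a time gave −0.72 to −0.61 for Cpm, −0.49 to −0.37 for Serpinb1a, −0.31 to −0.22 for Adamts4, −0.23 to −0.07 for Klk6, −0.02 to 0.01 for Cpe, −0.0027 to 0.05 for Timp4 and 0.09 to 0.16 for Htra1. With system noise 1 log2 unit higher, Serpinb1a differed by −0.17, since low values are raised to that level.

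Over all probe sets, against 0 with the settings of the report, 21 passed the adjustment with only probe sets of 1 gene, 1 after quantile normalization and 14 with a trend and robust estimation. At an unadjusted p, against 406, 127 passed with only probe sets of 1 gene, 2516 with no fold limit and 20 with a fold of at least 1.5. Of the related genes, against 1, 2 passed at an unadjusted p with arrays centred on their medians, 12 with no fold limit, 0 with a fold of at least 1.5 and 1 to 3 with 1 array left out. Bmp4 joined Mbp without CSD replicate 7, CSD replicate 9, HC replicate 1, HC replicate 4 or HC replicate 5, and Hapln2 without CSD replicate 9 or HC replicate 1. The number of the 7 genes without overlap of the groups was 1 to 3 with 1 array left out, 3 without CSD replicate 6 and 2 without HC replicate 5, a check added after seeing the data. Of the relations with markers, 1 passed the adjustment with arrays centred on their medians (Htra1 in HC mice, r = 0.97) and 1 with Aqp4 alone as the astrocyte marker (Timp4 in HC mice, r = 0.99, while in CSD mice this setting gave −0.85), and the cause was not tested.

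Only the replicate numbers 2 and 6 occur in both groups, and the deviations of these arrays from their group means correlated at −0.21 and −0.04. These values gave no sign of a pairing. They cannot exclude one, since both rest on the HC arrays that stood apart, and the sample titles do not explain the numbers. With the replicate block, 0 probe sets passed the adjustment and 400 at an unadjusted p, and the Cpm difference was −0.66. With 6 mice per group, r cannot reach an exact p below 0.00139, which limits the correlations.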
